A study of Mus musculus with 16 samples.

Results

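Baseline differences by genotype were examined in uninjured knee joints, comparing 4 Trem2-/- libraries with 4 wildtype (WT) libraries, both taken at day 0 (D0). These 8 libraries were all those labelled uninjured among the 16 of a bulk RNA-seq series, whose other 8 libraries came from joints of the same genotypes collected 7 days after injury (D7). Of the 13733 genes in the table, 13173 had a value of 1 or more counts per 1000000 reads (CPM) in 4 or more of the 16 libraries and were compared. The WT mice were male C57BL/6J and the knockout mice were male C57BL/6J-Trem2em2Adiuj/J, a germline Trem2 mutation made on the same background, so the loss was present in every cell that uses the gene. The labels and methods name no transgene, Cre or drug for any D0 group. The age at injury of the series' mice was 10 weeks in the treatment protocol, and the age label of every sample read 16 weeks. The methods describe cells released from dissected joints by collagenase digestion, whereas the labels carry a protocol for homogenized whole joints, so age and tissue handling could not be settled. That protocol also speaks of control and T1DM mice, although every sample carries only a genotype and an injury label. The methods refer to a cell isolation that ends with magnetic separation on CD45, the common leukocyte antigen, and do not say whether the bulk libraries were made from separated cells, and its part in the leukocyte and joint tissue levels below was not tested. Each library is called a mouse below and keeps the replicate number of its label. Neither source said whether animals were pooled, so the p-values describe the spread between libraries.

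Trem2 encodes a lipid-sensing receptor of macrophages, osteoclasts and related myeloid cells. It has almost no signaling tail of its own and relays its signal through the adaptor DAP12, the product of Tyrobp, to the kinase Syk. In the joint it is known from lining and lipid-handling macrophages, and the TREM2-DAP12 pair has a described role in osteoclasts, which resorb bone. A preparation of a whole knee also holds neutrophils and B cell precursors of the marrow, chondrocytes of articular and growth plate cartilage, and fibroblasts of synovium, tendon and ligament, so a bulk level follows both how many such cells entered the tube and how much RNA each held. These 2 sources of a change, fewer cells of a type or less RNA per cell, cannot be told apart in bulk libraries.

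Uninjured libraries held 11567073 to 17572687 reads assigned to genes. The 4 WT libraries held 15769196 to 17572687 and the 4 Trem2-/- libraries 11567073 to 15092035, so every knockout library was shallower. A count of 3 reads corresponded to 0.143 to 0.232 CPM. No 2 uninjured libraries of the same genotype agreed within sampling noise, and the correlation of log2(CPM + 1) was 0.936 to 0.978 within WT and 0.962 to 0.989 within Trem2-/-. Markers of the knee were present in all 8 libraries, among them the lubricin gene Prg4 of the joint surface at 1039 to 9874 CPM and the cartilage collagen gene Col2a1 at 104 to 7409 CPM. The neutrophil alarmin gene S100a9, which neutrophils of marrow, blood and synovium all express, was at 5347 to 15470 CPM. Genes of precursors that normally reside in marrow were present in all 8 libraries as well, with the myeloperoxidase gene Mpo at 399.5 to 2565 CPM and the recombinase gene Rag1 at 18.95 to 61.7 CPM.

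Trem2 itself, on chromosome 17 from 48346401 to 48354147 (mm10, plus strand), was the gene targeted in the knockout. Its level was 2.51, 4.88, 5.26 and 5.61 CPM in WT mice 1 to 4, and 1.88, 0.948, 2.68 and 1.70 CPM in Trem2-/- mice 1 to 4. WT mouse 1 lay just below Trem2-/- mouse 3, so the groups overlapped by this 1 pair. The means were 4.56 ± 1.40 and 1.80 ± 0.713 CPM (SD, n = 4 each), a difference of -0.98 on the log2(CPM + 1) scale (SE 0.25, limma, unadjusted p = 0.00111, adjusted p = 0.9996, exact permutation p = 0.0571). Reads assigned to the gene as a whole do not show which part of the transcript they came from, so the remaining signal in knockout joints was not resolved further. The 15 to 45 reads behind the knockout values compare with 42 to 103 in WT.

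Genotype alone separated few genes in uninjured joints. A gene was called when limma, fitted to log2(CPM + 1) of all 16 libraries, gave a log2 difference beyond 0.32 in either direction with an unadjusted p under 0.05. By this rule 283 of 13173 genes were called, 2.15% of those tested. Of these, 103 were higher in Trem2-/- joints (0.782%) and 180 were lower (1.37%). The fit shares 1 estimate of spread over all groups, and the D7 libraries varied less. The median SD was 0.21 in WT and 0.13 in Trem2-/- at D7, against 0.27 and 0.24 at D0. Fitted alone, the 8 uninjured libraries gave 149 calls. With Benjamini-Hochberg adjustment 0 genes passed in limma, the smallest adjusted p being 0.9996, and 0 passed with edgeR's quasi-likelihood test or voom on the recovered reads. Only 385 genes had an unadjusted p under 0.05, fewer than the 659 that the threshold itself gives over 13173 genes. The calls below are therefore listed as the strongest differences between these 8 libraries and not as genes shown to depend on Trem2. The median difference over all genes was 0.0043 on the log2 scale, a value that the trimmed-mean scaling of the deposited table sets near 0.

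**Figure D1:**
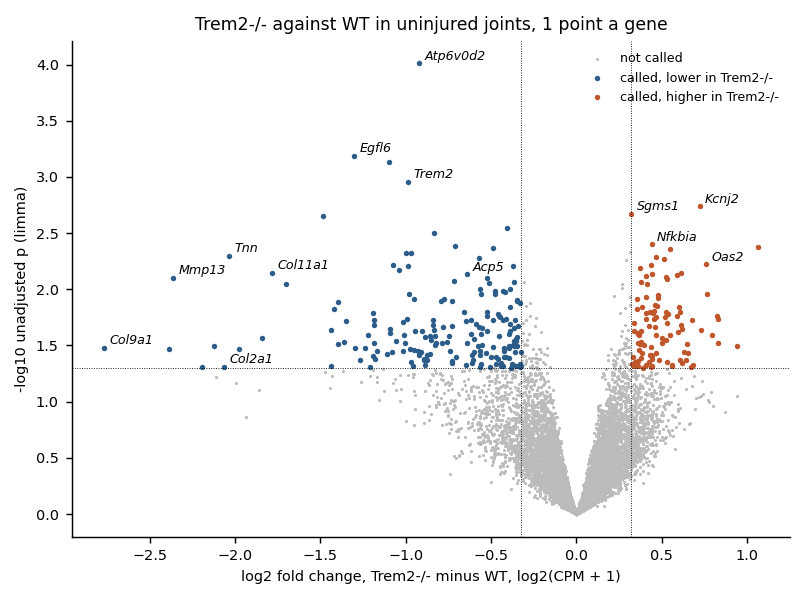
Each point is 1 of 13173 genes, placed by its log2 fold change (Trem2-/- minus WT, log2(CPM + 1), x axis) and by -log10 of its unadjusted limma p (y axis). Dotted lines mark the 2 limits of the call rule. The 180 genes called lower (blue) reach beyond -2 on the x axis while the 103 called higher (orange) lie nearer to the fold limit, and Atp6v0d2 has the smallest p of the labelled genes.

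Size set the 2 directions apart. Among called genes 45 differed by more than 2-fold, 44 of them lower and 1 higher in Trem2-/-. That gene, named after its value was seen, was the chemokine receptor gene Cxcr1, with means of 0.996 CPM in WT and 3.56 CPM in Trem2-/-. The 4 WT and 4 Trem2-/- values did not overlap for 129 genes, 0.979% of those tested, and 41 of these were also called. Restricting to a mean of at least 5 CPM left 18 such genes, 9 in each direction, all of which are named below. Where groups did not overlap, the exact permutation test gave 0.0286, the smallest p that 4 against 4 mice allow. Without any effect of genotype a share of about 0.0286 of genes would separate in this way. The 0.979% found was below that share, so a lack of overlap does not by itself mark a gene as changed.

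Mmp13 and 2 osteoclast genes were lower in Trem2-/- without overlap of the groups. Mmp13, the collagenase of hypertrophic chondrocytes and osteoblasts (chromosome 9, 7272514 to 7283331, plus strand), measured 317, 165, 237 and 1059 CPM in WT mice 1 to 4 and 127, 71.6, 23.0 and 84.5 CPM in Trem2-/- mice 1 to 4. Every knockout value was below every WT value, with WT mouse 4 standing far above the others. The means were 444.5 ± 414 and 76.6 ± 42.9 CPM, a log2 difference of -2.36 (SE 0.77, limma unadjusted p = 0.00789, exact permutation p = 0.0286). Mmp13 was called under every alternative processing tried.

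Of 9 osteoclast genes, 6 had a lower mean and 3 a higher one, and the list's median was -0.21. Acp5 and Atp6v0d2 were called lower, and their groups did not overlap. Over all genes tested, 1.37% were called lower and 0.979% had groups that did not overlap. Acp5, which encodes the tartrate-resistant acid phosphatase used to stain osteoclasts (chromosome 9, 22126727 to 22135711, minus strand), measured 27.2, 35.0, 27.96 and 37.5 CPM in WT and 19.6, 15.4, 25.6 and 20.5 CPM in Trem2-/-. The nearest values were WT mouse 1 and Trem2-/- mouse 3, and the log2 difference was -0.64 (SE 0.21, limma unadjusted p = 0.00737). Its exons overlap an antisense gene, 6530413G14Rik, and whether counting used strand was not given in the sources used here. Atp6v0d2, a subunit of the proton pump with which osteoclasts acidify bone (chromosome 4, 19876841 to 19922605, minus strand), measured 3.17, 3.92, 2.71 and 4.36 CPM in WT and 1.61, 1.33, 1.49 and 1.08 CPM in Trem2-/-. Its groups were separated by a gap wider than the spread within Trem2-/-, and the log2 difference was -0.92 (SE 0.18, limma unadjusted p = 9.73e-05, adjusted p = 0.9996). Both genes were also called under every alternative that tested them. The other 7 osteoclast genes, among them the cathepsin gene Ctsk and the receptor gene Calcr, were not called.

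The promoter of Mmp13 is shown because this was the largest difference with no overlap between groups and because AP-1, the Fos and Jun dimer, is a known regulator of collagenase genes. The 300 bases at chr9:7272264-7272563 (GRCm38.p6, RefSeq start, plus strand) run from 250 bases before the start of transcription to 50 after it, and capitals mark the AP-1 letters TGANTCA, a pattern that reads alike on both strands.
Mmp13: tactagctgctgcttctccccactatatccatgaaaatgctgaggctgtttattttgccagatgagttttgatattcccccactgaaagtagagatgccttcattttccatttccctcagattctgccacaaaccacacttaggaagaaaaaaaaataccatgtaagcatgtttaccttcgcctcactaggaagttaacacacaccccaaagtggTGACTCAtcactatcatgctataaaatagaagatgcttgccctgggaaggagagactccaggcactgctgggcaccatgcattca
The window held 1 match, ending 28 bases before the start. The same letters occurred in 7.81% of all 32851 RefSeq promoter windows of that length, and in 0 of the 3 windows listed for Acp5. A match is a description of the letters in the window. The AP-1 gene Jun was called higher in Trem2-/-, largely on mouse 3, as given below. Any part of AP-1 in the Mmp13 difference was not tested.

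**Figure D2:**
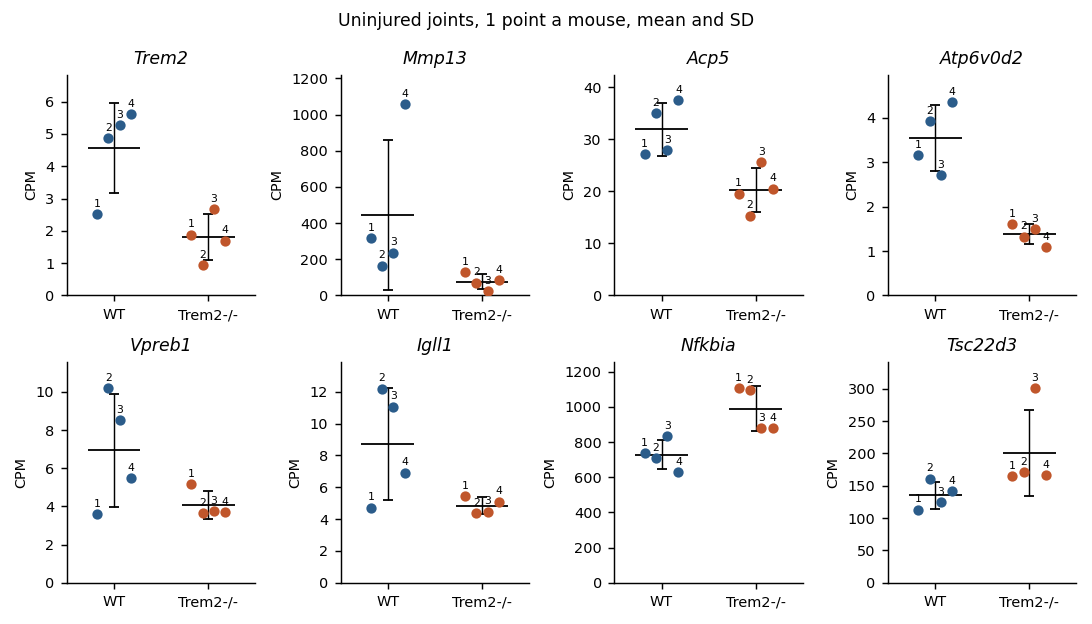
Levels in CPM (y axis, starting at 0) of 8 genes in WT (blue) and Trem2-/- (orange) uninjured mice, with 1 point a mouse numbered as its label, a line at the mean and bars of 1 SD (n = 4). Mmp13, Acp5, Atp6v0d2, Nfkbia and Tsc22d3 show no overlap of the groups, whereas Trem2, Vpreb1 and Igll1 overlap.

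Cartilage matrix genes were lower on average in Trem2-/- joints, and the spread among mice was wide. Of 18 genes of this list, 18 had a lower mean, 8 were called lower and 0 had groups that did not overlap. Over all genes tested, 48.8% had a lower mean, 1.37% were called lower and 0.979% had groups that did not overlap. The same shares stand beside the later list counts, with 0.782% of all genes called higher. The median difference was -1.46 on the log2 scale beside 0.0043 over all genes. Called members were the cartilage collagen genes Col2a1, Col9a1, Col9a2, Col9a3, Col11a1 and Col11a2, the matrix bridging gene Matn3, and Hapln1, whose product links aggrecan to hyaluronan. All were measured in the same 8 libraries and are not separate observations. Col2a1, the main collagen of cartilage, measured 1504, 198.5, 4754 and 7409 CPM in WT mice 1 to 4. In Trem2-/- mice 1 to 4 it measured 455, 2131, 339 and 104 CPM. WT mouse 2 lay below 3 of the 4 knockout mice, and Trem2-/- mouse 2 lay above WT mice 1 and 2. The log2 difference was -2.06 (SE 0.96, limma unadjusted p = 0.0487, exact permutation p = 0.229).

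Col11a1 and Hapln1 held up best in this list, both being called under every alternative that tested them. Their exact permutation p was 0.0857 and 0.114, so neither passed 0.05 in that test. Col11a1 measured 327, 87.8, 477 and 1227 CPM in WT and 88.2, 221.5, 73.0 and 81.4 CPM in Trem2-/-, a log2 difference of -1.79 (SE 0.58, limma unadjusted p = 0.00715). Hapln1 measured 116, 29.0, 179 and 302 CPM in WT and 33.1, 77.5, 36.1 and 16.4 CPM in Trem2-/- (log2 difference -1.70). In each case WT mouse 2 fell among the knockout mice and Trem2-/- mouse 2 was the highest of its group. Acan, which encodes aggrecan, gave 310, 52.0, 379 and 1245 CPM against 99.0, 263, 122 and 39.4 CPM and was not called (log2 difference -1.47). Comp, the most abundant non-collagen gene of the list, gave a smaller difference of -0.34 and was not called either.

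The cartilage counts rested on single mice. Without WT mouse 4 only 2 of the 18 genes were called and the list's median was -0.99. Leaving out WT mouse 2 instead, the WT mouse with the least cartilage signal, gave 15 calls and a median of -2.28. Leaving out WT mouse 3, Trem2-/- mouse 3 or Trem2-/- mouse 4 gave 2 calls each. Marrow signal differed between these mice as well, with a summed neutrophil level of 17480 CPM in WT mouse 4, 34196 CPM in WT mouse 2 and 49441 CPM in Trem2-/- mouse 3. With the neutrophil level as a covariate in the fit, 6 of the 18 cartilage genes were called and the median was -1.37.

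Among 7 growth plate genes, Mmp13, the parathyroid hormone receptor gene Pth1r and the hypertrophic channel gene Panx3 were called lower. These were 3 of 7, against 1.37% of all genes, and the list's median was -1.19. Pth1r measured 22.8, 7.65, 42.6 and 43.1 CPM in WT and 10.95, 17.6, 6.56 and 7.80 CPM in Trem2-/-, a log2 difference of -1.19 with overlap at WT mouse 2. Panx3 ranged from 0.239 to 25.1 CPM in WT and from 0 to 2.78 CPM in Trem2-/-, where the 0 reads of mouse 4 allow up to 0.232 CPM. Col10a1, the collagen of hypertrophic chondrocytes, gave 134.5, 6.45, 347 and 289 CPM against 33.2, 46.4, 56.0 and 3.40 CPM and was not called. Ihh, Ptch1 and Gli1 of the hedgehog pathway were not called. The summed level of this list was 197 to 1437 CPM in WT and 103 to 193 CPM in Trem2-/-, and the 2 ranges met without overlapping, Mmp13 having the largest mean of its members.

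Fibroblast genes differed less. Of 20 genes, 19 had a lower mean in Trem2-/- and 3 were called, the collagen gene Col1a1 and the collagen-fibril proteoglycan gene Lum lower, and Pi16, a marker of adventitial fibroblasts, higher. The median difference was -0.39. Col1a1 measured 6018, 1918, 3714 and 18520 CPM in WT and 3142, 2459, 1282 and 2369 CPM in Trem2-/-, with WT mouse 4 alone more than any other 3 mice together and WT mouse 2 below 3 knockout mice. Lum followed with 521, 178, 267 and 1274 CPM against 359, 194, 87.8 and 191 CPM. Pi16 went the other way, at 93.5, 97.0, 126 and 75.2 CPM in WT and 192.5, 140.5, 157 and 107 CPM in Trem2-/-, a log2 difference of 0.59 (SE 0.19, limma unadjusted p = 0.00744) with overlap only at WT mouse 3. It was called under every alternative tested, its exact permutation p was 0.0571, and its exons overlap the gene AC162182.1. Without WT mouse 4 only 1 of the 20 fibroblast genes was called, and without WT mouse 2 there were 11.

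Tendon, ligament and osteoblast genes followed the same mice. Of 6 tendon and ligament genes 6 had a lower mean, with a median of -0.76. The transcription factor gene Mkx and the keratan sulfate proteoglycan genes Kera and Fmod were called lower (3 of 6, against 1.37% of all genes). Kera measured 49.5, 11.5, 51.2 and 49.1 CPM in WT and lay between 17.9 and 19.5 CPM in all 4 Trem2-/- mice. WT mice 1, 3 and 4 were well above the knockout mice and WT mouse 2 was below them. Tnn, which encodes the matrix protein tenascin-N (also tenascin-W) and was outside the lists, measured 188, 74.2, 160.5 and 1353 CPM in WT and 112.5, 63.8, 47.1 and 30.3 CPM in Trem2-/- (log2 difference -2.03, limma unadjusted p = 0.00501, exact permutation p = 0.0571), and was called under every alternative. Of 7 osteoblast and osteocyte genes 2 were called lower, the osteoblast transcription factor gene Sp7 and the phosphatase gene Alpl, with a median of -0.89. Without WT mouse 4, 0 of 6 tendon genes and 0 of 7 osteoblast genes were called.

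The 5 synovial lining genes gave no call and a median of -0.046. Prg4, the lubricin gene, measured 6852, 5386, 1039 and 6244 CPM in WT and 1939, 2362, 3252 and 9874 CPM in Trem2-/-. Its highest and lowest values were Trem2-/- mouse 4 and WT mouse 3, so the gene varied 9.51-fold between mice with a difference between genotypes of only -0.18. None of 12 endothelial genes (median 0.16) and none of 5 adipocyte genes (median 0.090) was called. Of 14 skeletal muscle genes 14 had a higher mean and Tnnt1, a slow-fibre troponin gene, was called higher, with a median of 0.46. WT mouse 4 was the lowest mouse for 12 of these genes and Trem2-/- mouse 4 the highest for 11. The summed muscle level was 315 to 1102 CPM in WT and 534 to 1483 CPM in Trem2-/-.

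Genes higher in Trem2-/- joints included regulators that respond quickly to stimuli. Nfkbia, the inhibitor that NF-kappaB itself induces, measured 739, 711, 833 and 631.5 CPM in WT and 1107, 1095, 880.5 and 881 CPM in Trem2-/-. Every knockout value exceeded every WT value, and the log2 difference was 0.44 (SE 0.13, limma unadjusted p = 0.00399). Tsc22d3, which encodes the glucocorticoid-induced protein GILZ, measured 113, 161, 124 and 142 CPM in WT and 165, 171, 301 and 167 CPM in Trem2-/- (log2 difference 0.53). The groups did not overlap, but WT mouse 2 and Trem2-/- mouse 1 were close and Trem2-/- mouse 3 was far above the rest. It was the only one of 6 glucocorticoid response genes called, and the list's median was 0.23.

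Of 11 immediate-early and heat shock genes, 11 had a higher mean in Trem2-/- and 3 were called higher, Jun, Ier2 and Atf3, with a median of 0.41. Jun measured 1446, 2164, 1186 and 1292 CPM in WT and 1944, 1917, 4227 and 1633 CPM in Trem2-/-, so that the difference of 0.61 rested largely on Trem2-/- mouse 3. Without that mouse 0 of the 11 genes were called, and without WT mouse 4 also 0. Such genes are known to respond to tissue dissociation within minutes, and handling times of single joints were not given in the sources used here. Ier5, an immediate-early gene outside the list, did not overlap between groups, at 560 to 720 CPM in WT and 725 to 889 CPM in Trem2-/- (log2 difference 0.34). The nearest values, 720.3 and 725.0 CPM, were nearly the same. Of 15 circadian clock genes only the repressor gene Nr1d1 was called, lower, at 66.7 to 163 CPM in WT and 39.3 to 109 CPM in Trem2-/- (median of the list -0.13).

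Type I interferon response genes had slightly higher means in Trem2-/-. Of 15 tested, 15 had a higher mean in Trem2-/-, with a median of 0.24. Oas2 and Oas3, which encode sensors of double-stranded RNA, were called higher (2 of 15, against 0.782% of all genes). The lowest of the 8 mice was WT mouse 4 for 9 of these genes and WT mouse 2 for 6. Among the alternatives the median ran from 0.015 to 0.37. Oas2 measured 30.4, 23.95, 26.6 and 13.7 CPM in WT and 38.4, 50.6, 50.1 and 24.1 CPM in Trem2-/- (log2 difference 0.76, SE 0.24, limma unadjusted p = 0.00600). Oas3, its neighbour on chromosome 5, measured 30.5, 44.4, 43.7 and 20.1 CPM in WT and 70.3, 72.8, 73.1 and 33.0 CPM in Trem2-/- (log2 difference 0.82). In both genes 3 knockout mice lay above all WT mice and Trem2-/- mouse 4 lay within the WT range, while WT mouse 4 was the lowest of all 8. Oas2 remained called under every alternative that tested it. The exact permutation p was 0.0857 for both genes.

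The remaining genes without overlap had less in common. Lower in Trem2-/- were Tmem263, the serine incorporator gene Serinc5, the sterol synthesis gene Hsd17b7, the TNF receptor family gene Tnfrsf19, the adenosine kinase gene Adk, the propionyl-CoA carboxylase gene Pccb and the oxidoreductase gene Wwox, with log2 differences from -0.35 to -0.56. Higher were the copper transporter gene Slc31a2, Cdc42ep2, the snRNP gene Lsm10, Ap5s1, the ubiquitin ligase adaptor gene Klhl2 and the sphingomyelin synthase gene Sgms1, with differences from 0.32 to 0.47. Serinc5 measured 78.0, 86.9, 102 and 119 CPM in WT and 63.9, 73.9, 54.9 and 75.5 CPM in Trem2-/-. Slc31a2 measured 39.9, 41.3, 43.5 and 38.7 CPM in WT and 63.7, 65.6, 51.8 and 47.7 CPM in Trem2-/-. None of these passed adjustment. Of 4 genes that mark C57BL/6 substrains, Nnt among them, 0 were called (median 0.076).

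Macrophage and TREM pathway genes gave no call apart from Trem2. Of 15 macrophage genes 0 were called and the median was -0.017, and the summed level of 280 to 463 CPM in WT enclosed the 324 to 419 CPM in Trem2-/-. Of 11 genes of TREM receptors and DAP12 signaling 0 were called, with a median of 0.25. Tyrobp measured 313, 410, 564 and 311 CPM in WT and 548, 466, 480 and 381 CPM in Trem2-/-, with overlapping groups. Of 13 lipid-associated macrophage genes, which are known to depend on Trem2 in other tissues, 0 were called and the median was 0.025. Apoe, encoding a lipid carrier that binds TREM2, measured 320, 180, 282 and 263 CPM in WT and 226, 287, 208 and 337 CPM in Trem2-/-. The genotype means of Apoe, 261 ± 59.4 and 264.5 ± 59.2 CPM, differed by far less than 1 SD. No call was made among 6 monocyte genes (median 0.25), 8 dendritic cell genes (-0.18), 12 T and NK cell genes (0.12) or 10 general leukocyte genes (0.31).

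Marrow genes varied between mice more than between genotypes. Of 12 neutrophil granule and alarmin genes 12 had a higher mean in Trem2-/-, 0 were called under any setting tried, and the median was 0.28. S100a9 measured 5347, 10270, 11870 and 5517 CPM in WT and 14350, 8602, 15470 and 5847 CPM in Trem2-/-. Both genotypes held mice with high and mice with low values. The summed level of the list was 15713, 34196, 36315 and 17480 CPM in WT and 43759, 21890, 49441 and 16091 CPM in Trem2-/-. Trem2-/- mouse 3 thus held 3.15 times as much as WT mouse 1.

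Primary granule genes of myeloid precursors, which are switched off as neutrophils mature and so mark marrow, varied further. Of 8 genes 0 were called, the median was 0.30 and the summed level ran from 631 CPM in WT mouse 1 to 4174 CPM in Trem2-/- mouse 3, a 6.61-fold range. Mpo, the myeloperoxidase gene, measured 399.5, 1656, 1386 and 827 CPM in WT and 1530, 561, 2565 and 713 CPM in Trem2-/-. Cell cycle genes gave 0 calls of 13 (median 0.11) and a summed level of 411 to 1673 CPM in WT and 593 to 1489 CPM in Trem2-/-. Erythroid genes gave 0 of 10 (0.011), with Hba-a1, an alpha-globin gene, at 753 to 1998 CPM over the 8 mice. Of 10 megakaryocyte and platelet genes, Tubb1, the platelet tubulin gene, was called higher at 1.55 to 2.96 CPM in Trem2-/- against 1.03 to 1.79 CPM in WT, and the median was -0.074.

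**Figure D3:**
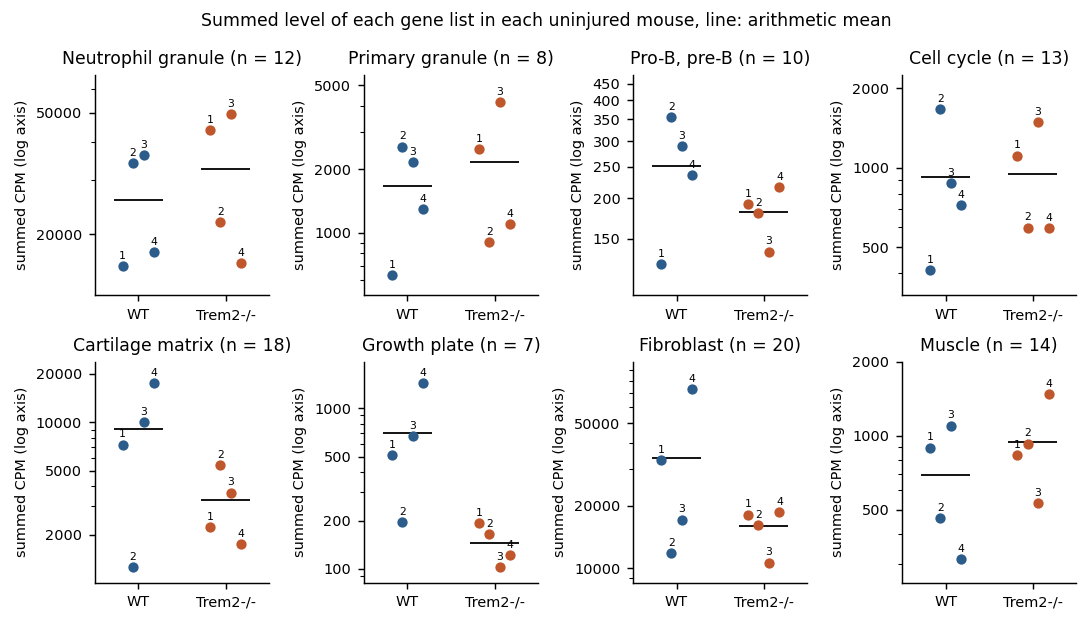
Summed CPM (log y axis) of 8 gene lists in each uninjured WT (blue) and Trem2-/- (orange) mouse, numbered as in the labels, with a line at the arithmetic mean of 4 mice and the number of genes of each list in its title. The neutrophil sums of the genotypes overlap, with Trem2-/- mice 1 and 3 above every WT mouse. The cartilage sum is highest in WT mouse 4 and lowest in WT mouse 2. The growth plate sums of all Trem2-/- mice lie below those of all WT mice, of which only mouse 2 is close to them.

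B cell precursor genes had lower means in knockout joints. Of 10 pro-B and pre-B cell genes 10 had a lower mean, with a median of -0.41. Vpreb1 and Igll1, which encode the surrogate light chain of the pre-B cell receptor, were called lower (2 of 10, against 1.37% of all genes). Igll1 measured 4.72, 12.2, 11.1 and 6.92 CPM in WT and 5.44, 4.36, 4.47 and 5.10 CPM in Trem2-/- (log2 difference -0.66, SE 0.24, limma unadjusted p = 0.0158). WT mice 2, 3 and 4 exceeded all knockout mice and WT mouse 1 lay among them, and the exact permutation p of Igll1 was 0.0857. Vpreb1 measured 3.59, 10.2, 8.51 and 5.50 CPM in WT and 5.18, 3.66, 3.76 and 3.71 CPM in Trem2-/- (log2 difference -0.57). The groups again overlapped at WT mouse 1, which was the mouse with the lowest summed level of this list, at 125 CPM. Without WT mouse 1, 8 of the 10 genes were called, and without WT mouse 2 or WT mouse 3, 0 were. Of 7 mature B cell genes 0 were called and the median was -0.064. Exons of Vpreb1 overlap those of Top3b over 9.01% of their length.

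Most of the spread between uninjured mice was not on the line between the genotypes. Genotype carried 10.4% of the total variance of log2(CPM + 1) over the 8 libraries, against 14.3% for an equal share of the 7 available directions. The first principal component held 53.9% of the variance, and 4.67% of it lay between genotypes. Its scores were -46.0, 42.4, 5.30 and -27.6 in WT mice 1 to 4 and 19.3, -12.2, 39.4 and -20.5 in Trem2-/- mice 1 to 4. WT mice 1 and 2 therefore stood at its 2 ends. Towards the positive end were marrow granulocyte genes, led by the neutrophil elastase gene Elane, the eosinophil granule genes Epx and Prg2, and Fcnb and Chil3. Towards the negative end were Col9a1, Matn3, the chondromodulin gene Lect1, C1qtnf3 and the mitochondrial leucyl-tRNA synthetase gene Lars2.

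Whole lists followed these axes. All 12 neutrophil, 8 primary granule, 13 cell cycle, 10 pro-B and pre-B and 10 general leukocyte genes had positive loadings on the first component. All 18 cartilage, 12 endothelial and 14 muscle genes had negative ones, as had 18 of 20 fibroblast genes. Marrow lists and joint tissue lists thus lay at opposite ends of it. The second component held 18.4% of the variance, of which 24.5% lay between genotypes, and its scores were led by WT mouse 4 at 37.9, with Trem2-/- mouse 4 lowest at -22.7. On it cartilage (18 of 18), tendon (6 of 6), osteoblast (7 of 7) and fibroblast genes (19 of 20) were positive. So were the marrow lists of cell cycle (13 of 13), pro-B and pre-B (10 of 10), primary granule (8 of 8) and mature B cell genes (7 of 7). Muscle (14 of 14), endothelial (12 of 12) and interferon genes (15 of 15) were negative.

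**Figure D4:**
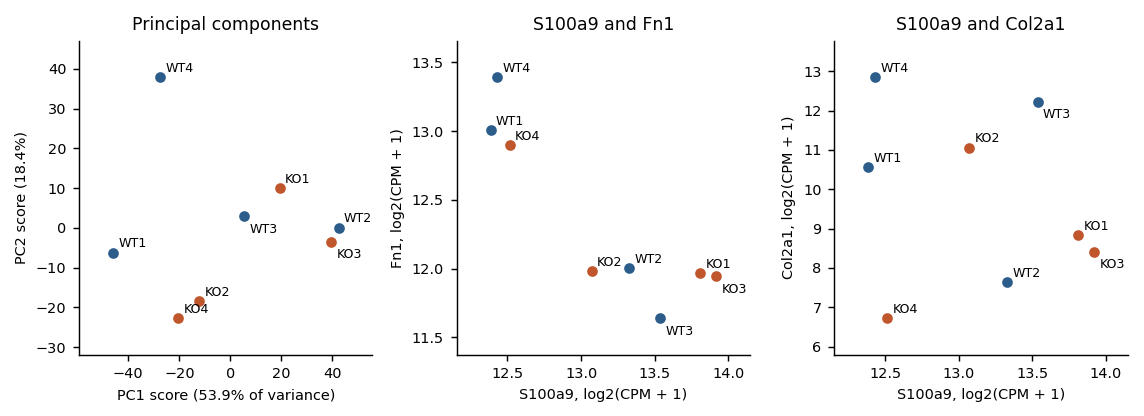
Left, scores of the 8 uninjured mice (WT blue, Trem2-/- orange, labelled KO) on the first 2 principal components of log2(CPM + 1). Middle and right, log2(CPM + 1) of S100a9 (x axis) against Fn1 and Col2a1 (y axis), with 1 point a mouse. WT mouse 4 stands alone on the second component, and WT1, WT4 and KO4 combine low S100a9 with high Fn1.

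Cartilage genes were prominent among the genes most variable between mice of one genotype. The 12 genes with the largest SD within genotypes among those with at least 5 CPM were Col2a1, Col9a1, Col9a2, Col9a3, Matn3, Panx3, Col10a1, Lect1, Acan, C1qtnf3, Slc15a2 and Lars2. Col9a1 ran from 1.49 to 328 CPM over the 8 mice, and its pooled SD of 2.65 on the log2 scale compared with a median of 0.27 over all genes. Matn3 ran from 0.179 to 108 CPM. C1qtnf3, a secreted protein gene of cartilage and mesenchymal cells, was at 659 CPM in WT mouse 4 and between 3.82 and 24.4 CPM in the other 7 mice. Lars2 was at 6953 CPM in WT mouse 1 and 3355 CPM in WT mouse 4, and between 205 and 853 CPM in the remaining mice. Slc15a2, a peptide transporter gene, was at 72.8 CPM in Trem2-/- mouse 4 and 0.418 CPM in Trem2-/- mouse 3. Over all genes the median SD between mice was 0.27 in WT and 0.24 in Trem2-/-, and 60.2% of genes had the larger SD in WT. Between the lowest and highest of 8 mice, 652 genes (4.95%) spanned more than 4-fold.

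Called genes leaned on WT mouse 4. Of the 180 genes called lower, 179 had their highest value in a WT mouse, and for 126 of these (70.4%) it was WT mouse 4, against 27.6% of all genes that were highest in a WT mouse. Their lowest value fell in a Trem2-/- mouse for 168, and for 94 of these (55.95%) it was mouse 3, against 33.97% over all genes lowest in a Trem2-/- mouse. Of the 103 called higher, 52 (50.5%) were lowest in WT mouse 4, against 21.96% of all genes lowest in a WT mouse, and 47 (45.6%) were highest in Trem2-/- mouse 3, against 40.3%. Without WT mouse 4 the fit called 107 genes, and without WT mouse 2 it called 1231. Without both it called 588, an alternative added after the data had been examined.

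S100a9 and Fn1 ran in opposite directions across the mice, and no relation of either with Col2a1 was detected. These were the most abundant genes of the neutrophil, fibroblast and cartilage lists, and 3 relations between them were computed over the 8 mice. Fn1, the fibronectin gene, measured 8233, 10770 and 7624 CPM in WT mice 1 and 4 and Trem2-/- mouse 4, the 3 mice with an S100a9 level from 5347 to 5847 CPM, and 3189 to 4106 CPM in the other 5. Between S100a9 and Fn1, Pearson's r was -0.88 and Spearman's rho -0.88 (n = 8, exact permutation p = 0.00784 and 0.00724, adjusted 0.0235 and 0.0217). Leaving out 1 mouse, r ran from -0.92 to -0.86, and its adjusted exact permutation p from 0.0464 to 0.0911. CPM values are shares of a library total, so more of 1 abundant tissue lowers the share of another. The part of this in r was not tested. Without the 2 mice farthest from the median of S100a9, r was -0.78, and centred on the mean of each genotype it was -0.87. The mice lay in 2 sets of 3 and 5 on these genes. Among the 5 alone r was -0.12, so the relation over 8 mice lay between the 2 sets. No p was computed within either set. Between S100a9 and Col2a1, Pearson's r was -0.22 and Spearman's rho -0.24 (n = 8, exact permutation p = 0.596 and 0.582, adjusted 0.728 and 0.873). Without the 2 mice farthest from the median, r was 0.28. The exact permutation p for Col2a1 and Fn1 was 0.728, with r 0.15. Trem2-/- mouse 4 combined low S100a9 with the lowest Col2a1 of all mice, 104 CPM, and WT mouse 3 combined high values of both. Within a genotype 4 mice are too few for a correlation.

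The D7 mice shared no library with the D0 means and gave the same genotypes in injured joints. Both contrasts came from the same fit and share its estimate of spread, so the calls at D0 and D7 are not fully independent. At D7 the same fit called 753 genes, 5.72% of those tested. Of the 283 genes called at D0, 9 were called in the same direction at D7, which is 3.18% of the D0 list and 1.195% of the D7 list, and 21 were called in the opposite one. By direction, 8 of the 180 lower genes (4.44%) were called lower at D7, where 4.53% of all genes were, and 1 of the 103 higher genes (0.971%) was called higher, against 1.18% of all genes. The repeats were thus no more frequent than calls at D7 in general. Of the 103 genes higher at D0, 30 (29.1%) kept their sign at D7, and their median there was -0.10. Of the 180 lower, 79 (43.9%) kept their sign, with a median of 0.051. Over all genes tested, 51.6% were higher and 48.4% lower in Trem2-/- at D7. The test of the difference between D0 and D7 called 1026 genes over the whole table, 7.79%, and 134 of the 283. Since the D0 contrast is part of that difference, the second count is not independent of how the genes were chosen.

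**Figure D5:**
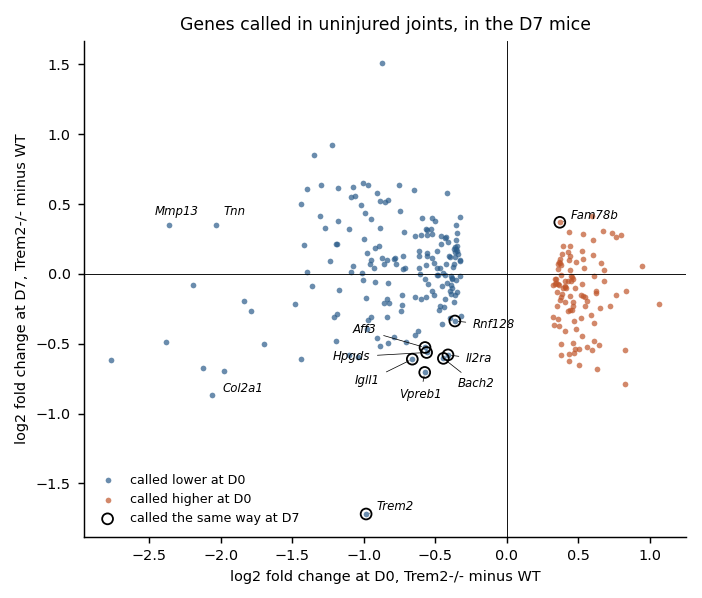
Each point is 1 of the 283 genes called at D0, placed by its log2 difference (Trem2-/- minus WT) at D0 on the x axis and at D7 on the y axis, blue where called lower and orange where called higher at D0. Black rings mark the 9 genes called in the same direction at D7. Most points lie near 0 on the y axis, and Mmp13 and Tnn lie above it.

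The 9 genes called at both times were named after their values were seen, and with a share at the background they are listed as values only. They were Trem2 and, lower as well, Igll1, Vpreb1, the B lineage transcription factor gene Bach2, Aff3, the interleukin-2 receptor gene Il2ra, the prostaglandin D synthase gene Hpgds and the ubiquitin ligase gene Rnf128, with Fam78b higher. At D7 Trem2 measured 10.7 to 22.5 CPM in WT and 3.42 to 4.84 CPM in Trem2-/-, without overlap (log2 difference -1.72, limma adjusted p = 0.0503). Vpreb1 measured 2.02, 2.49, 1.62 and 1.13 CPM in WT D7 mice and 0.773, 0.758, 0.336 and 1.00 CPM in Trem2-/- D7 mice, and Igll1 gave 1.19 to 2.83 against 0.728 to 1.67 CPM. Of the 10 pro-B and pre-B cell genes, 8 were called lower at D7, where 4.53% of all genes were, and 10 had a lower mean. Other leukocyte lists were lower at D7 too, with 8 of 11 TREM and DAP12 genes, 7 of 10 general leukocyte genes, 5 of 7 mature B cell genes and 4 of 15 macrophage genes called lower, so the D7 value was not particular to B cell precursors. For 0 of the 10 did the difference between D0 and D7 pass the rule. Bach2 measured 22.1, 44.9, 39.6 and 34.8 CPM in WT D0 mice and 29.4, 22.4, 17.2 and 33.7 CPM in Trem2-/- D0 mice, and 16.6 to 21.7 against 11.6 to 13.6 CPM at D7.

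For 4 of the genes described above the D7 mice gave other values. The log2 difference of Mmp13 was 0.35 at D7, that of Tnn 0.35, that of Acp5 0.27 and that of Atp6v0d2 -0.057, and none of them was called there. The change of the difference from D0 to D7, tested in the same limma fit, was called for Mmp13 (2.71), Tnn (2.38), Acp5 (0.91) and Atp6v0d2 (0.87). The limma adjusted p of this change was 0.5792 for each. Cartilage genes kept the direction, 18 of 18 having a lower mean at D7 with a median of -0.49, but 0 of them were called. Fibroblast genes had a median of 0.24 at D7 and tendon genes one of 0.77, both above 0. Neutrophil genes had a median of -0.59 at D7 against 0.28 at D0, with 0 of 12 called at either time.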

How the data were processed

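Total RNA of knee joint cells was sequenced in 16 libraries, 4 in each of WT D0, Trem2-/- D0, WT D7 and Trem2-/- D7, grouped by genotype and condition in the labels. The study's methods name a stranded mRNA kit and the labels an unstranded one. Per the study, the authors aligned reads to mm10 with STAR, counted them with featureCounts and normalized them with edgeR; versions, annotation, strand setting and filter were not given in the sources used here. The deposited values are a normalized signal, reads per library total (CPM) after edgeR's trimmed-mean scaling, and 100% of them came back as whole reads within 0.02 read, which gave the depths. The table listed 1 gene, Fcgr1, 2 times with the same values, and it was kept once.

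Values were taken to log2(CPM + 1). Genes reaching 1 CPM in 4 or more of 16 libraries were fitted with limma 3.58.1 (R 4.3.3, eBayes with trend), the 4 groups as one factor. Differences are on the log2(CPM + 1) scale and understate those of low genes. Calls need an unadjusted p under 0.05 and a log2 difference beyond 0.32; Benjamini-Hochberg adjusted values run over all genes tested. Single genes also had an exact two-sided permutation test. In simulated counts, 68.7% of genes changed 1.5-fold and 94.0% of those changed 2-fold were called, with 3.96% of unchanged ones. The changed genes averaged 5 CPM or more, and each gene varied on its own, without the axes that genes shared in the real mice. These shares therefore do not give the power in the real libraries. edgeR 4.0.16 on the recovered reads, voom, other pseudocounts, filters, scalings, the replicate block and leaving out each library were alternatives.

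The comparison and the gene lists were chosen with earlier results of these data known. Named genes were Trem2, Tyrobp and Apoe, called genes averaging 5 CPM or more without overlap (up to 12 a direction), called list members, the 3 most abundant members of marrow, cartilage and fibroblast lists, the 12 most variable genes, the leading loadings of both components, and the 3 genes of the relations. Of the symbols listed, Snorc and Cnmd were matched by their older names in the table. Lists of sex-linked and mitochondrially encoded genes had 0 members tested and are not analysed here. Positions are from GENCODE M21 (mm10). Exons of Acp5, Col9a3, Jun, Mkx, Nr1d1, Pi16, Pth1r, Sgms1, Tmem263 and Vpreb1 overlap another gene there, so their values are less certain.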

Additional observations from a re-analysis of the deposited data

Results flagged for a closer look

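Among groups of 4 mice, 1 mouse stood apart from the other 3 by Dixon's ratio in 14 of 250 groups tested, where chance alone gives about 12. In WT, mouse 4 stood apart for Mmp13 (ratio 0.83), C1qtnf3 (0.969) and Tnn (0.911), and mouse 2 for Kera (0.947). In Trem2-/-, mouse 1 stood apart for Vpreb1 (0.938) and C1qtnf3 (0.862), mouse 2 for Col9a3 (0.848), Col11a1 (0.897) and Col11a2 (0.877), mouse 3 for Tsc22d3 (0.952) and Jun (0.88), and mouse 4 for Oas3 (0.93), Fn1 (0.971) and Prg4 (0.835).

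For 4 of the genes named, Trem2-/- minus WT was called in opposite directions at D0 and D7 and the change between them was tested in limma. It was -0.96 for Slc31a2, -1.14 for Pi16, 2.38 for Kera and -1.62 for Tnnt1 on the log2(CPM + 1) scale. In Kera the D0 difference was -0.87 and the D7 difference 1.51.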

How the results depend on the processing

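No gene passed adjustment and Trem2 was called under every alternative for which these were read out. From the fit without WT mice 2 and 4 only the number of calls was taken. The 283 calls became 466 with edgeR, 149 when only the 8 uninjured libraries were fitted, 164 with a pseudocount of 5, 131 with a fold limit of 1.5, and 588 without WT mice 2 and 4, the last added after the data were examined. Leaving out 1 library gave 107 to 1231 calls, 2 to 15 among cartilage genes, 1 to 11 among fibroblast genes, 4 to 34 called the same way at D7, 4 to 136 called the opposite way, and 47.08% to 61.53% of variance on the first component. The lower direction held 63.6% of calls, 76.6% with edgeR, 47.2% with the neutrophil level as a covariate, 33.8% without WT mouse 1 and 38.5% without Trem2-/- mouse 3. With only the 8 uninjured libraries, 2 cartilage genes and 1 fibroblast gene were called, and D7 values were not available from that fit. With edgeR 10 fibroblast genes were called, and with voom 5. Genes called the same way at D7 numbered 15 with edgeR, 5 among genes averaging 5 CPM or more, and 2 with the 1.5-fold limit; those called the opposite way were 13 with a pseudocount of 5 and 3 with the 1.5-fold limit. Same-numbered mice of the 2 genotypes deviated together by correlations of -0.51, -0.51, 0.17 and 0.14, so the numbers were not taken as pairs, and not every mouse correlated best with its own number; with the replicate block, 279 genes and 2 cartilage genes were called. Leaving out 1 mouse, r of S100a9 with Col2a1 ran from -0.57 to 0.0497 and r of Col2a1 with Fn1 from -0.34 to 0.44, both changing sign without WT mouse 4. The cause of these changes was not tested. Of 1004 values of called named genes over the alternatives, 791 stayed called, 213 did not and 0 changed sign. Genes at a few CPM rest on few reads, and the shallower Trem2-/- libraries limit them most.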
